A study of Mus musculus with 16 samples.

Results

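Genes for the synthesis, binding and breakdown of hyaluronan were followed in sorted mouse skin cells. The 9 genes were taken by symbol from the table of counts: the synthases *Has1*, *Has2* and *Has3*, the binding proteins *Cd44*, *Tnfaip6* and *Vcan*, and the breakdown genes *Hyal1*, *Hyal2* and *Cemip*. All 9 were found among 55487 gene IDs, and 7 passed the filter on low counts in each comparison, *Has3* and *Cemip* being the exceptions. RNA was sequenced in bulk from skin cells sorted by flow cytometry on CD45, the surface protein of leukocytes encoded by *Ptprc*. The 16 libraries formed 4 groups of 4, given here as immune (CD45-positive) and stromal (CD45-negative) cells, each from skin taken 6 h after hypobaric pressure (stretched) and from unstretched skin of the same area (control). Both treatments share the sort, the kit and the tissue, and the labels give no strain, age or pooling of animals. The numbers in library names are those of the sample titles. The labels do not say whether the libraries of a group came from separate animals, so the p-values measure the spread between these samples.

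Hyaluronan is a long, unsulfated sugar chain of the extracellular matrix, and skin holds much of the body's store. It is spun out through the plasma membrane by the HAS synthases from UDP-sugars, is bound at the cell surface by receptors such as CD44 and in the matrix by proteins such as versican, and is cut by hyaluronidases. In inflamed tissue TSG-6, the product of *Tnfaip6*, transfers heavy chains of inter-alpha-inhibitor onto it, which lets leukocytes bind the chains more strongly.

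Total counts were 7018743 to 20095580 in immune stretched, 2645421 to 6662268 in immune control, 21955174 to 26944965 in stromal stretched and 13563586 to 20467010 in stromal control libraries, so depth did not overlap between stretched and control libraries of either fraction. Levels are given as CPM, counts per 1000000 scaled with TMM factors over all 16 libraries. *Ptprc* stood at 389 to 702 CPM in immune stretched, 206 to 611 in immune control, 0.917 to 3.37 in stromal stretched and 0.0644 to 1.30 in stromal control libraries. The summed level of 8 fibroblast markers (*Col1a1*, *Dcn*, *Pdgfra* and others, as CPM of the library total) was 1367 to 9688 in immune stretched, 1436 to 7220 in immune control, 45427 to 64233 in stromal stretched and 39366 to 55243 in stromal control libraries. Fibroblast transcripts were therefore present in every immune library, and none of the 8 markers was at 0 in any group. In all, 3 libraries stood apart by reads on 1738 olfactory and vomeronasal receptor genes, known mainly from the nose: 5942 CPM in immune control 4, 408 in stromal stretched 7 and 200.3 in stromal stretched 8, against 17.8 to 68.7 in the other 13. In bulk samples, fewer cells of a type and less RNA per cell cannot be told apart.

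Promoter sequences are shown for *Has1* and *Tnfaip6*, the members with the highest levels per kilobase in stromal cells, as the 250 bases before the RefSeq start site (GRCm38.p6), read 5′ to 3′ on the gene's strand. The windows lie at chr17:17855189-17855438 on the minus strand for *Has1* and at chr2:52037863-52038112 on the plus strand for *Tnfaip6*, and capitals mark the motif matches described next.
Has1: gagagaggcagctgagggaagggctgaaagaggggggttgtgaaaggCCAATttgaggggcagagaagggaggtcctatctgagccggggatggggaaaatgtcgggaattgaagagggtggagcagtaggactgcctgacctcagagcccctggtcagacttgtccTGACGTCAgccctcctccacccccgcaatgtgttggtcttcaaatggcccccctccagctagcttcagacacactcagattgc
Tnfaip6: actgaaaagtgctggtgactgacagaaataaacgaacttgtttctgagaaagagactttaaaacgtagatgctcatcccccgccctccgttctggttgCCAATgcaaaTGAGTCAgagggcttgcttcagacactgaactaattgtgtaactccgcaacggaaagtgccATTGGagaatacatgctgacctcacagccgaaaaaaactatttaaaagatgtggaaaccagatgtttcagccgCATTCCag
The *Has1* window held 1 cAMP response element, TGACGTCA, beginning at position -83 from the start site, and a CCAAT box at position -203. The *Tnfaip6* window held an AP-1 match, TGAGTCA, at position -142, a CCAAT box at position -152, the same box on the other strand (ATTGG) at position -81, and CATTCC, the TEAD motif read on the other strand, at position -8. GENCODE M21 sets the first base of *Tnfaip6* at 52038009 and that of *Has1* at 17855205, inside these windows. The *Tnfaip6* matches at -81 and -8 therefore lie within the GENCODE gene. Searched on both strands among 32851 windows of the same length, TGACGTCA was present in 1.55%, the AP-1 letters TGANTCA in 6.75%, CCAAT in 33.8%, the TEAD letters GGAATG in 12.6% and the TATA box letters TATAAA in 12.4%. RefSeq windows were at hand for 7 of the 9 genes. The AP-1 letters and TGACGTCA were in none of the windows of *Hyal1*, *Hyal2*, *Cemip*, *Cd44* and *Vcan*, *Cemip* held TATAAA at position -29, and *Cd44* held none of the 5 motifs. A match is a description of these letters and says nothing of binding in these cells.

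*Tnfaip6* was the most abundant of the 9 in every group. Per kilobase of exon its mean level was 1280 CPM in immune stretched, 405 in immune control, 5972 in stromal stretched and 4671 in stromal control cells. It ranked 3rd of 40009 genes with a read in stromal stretched and 5th of 29271 in stromal control cells, and 51st of 29819 in immune stretched and 128th of 38090 in immune control cells. *Has1* came next in stromal cells, at 772 CPM per kilobase in stretched (rank 50) and 631 in control (rank 86), and *Cd44* followed at 33.5 in stretched and 25.5 in control. In immune cells *Has1* averaged 131 CPM per kilobase in stretched and 28.6 in control, and *Cd44* 97.4 in stretched and 89.6 in control. *Has2* averaged 4.16, 1.42, 22.6 and 20.4 CPM per kilobase in immune stretched, immune control, stromal stretched and stromal control cells. *Vcan* averaged 1.78, 3.05, 4.69 and 4.803 on the same scale and in the same groups, and group means of *Hyal1* and *Hyal2* lay between 1.29 and 4.498. Some neighbours in this order overlapped between libraries: in stromal controls *Cd44* spanned 20.8 to 31.4 CPM per kilobase and *Has2* 11.1 to 27.8, and *Vcan* (3.13 to 5.83) overlapped *Hyal2* (3.69 to 5.03). *Has3* and *Cemip* were at the bottom, with group means of at most 0.0763 and 0.324 CPM per kilobase.

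**Figure D1:**
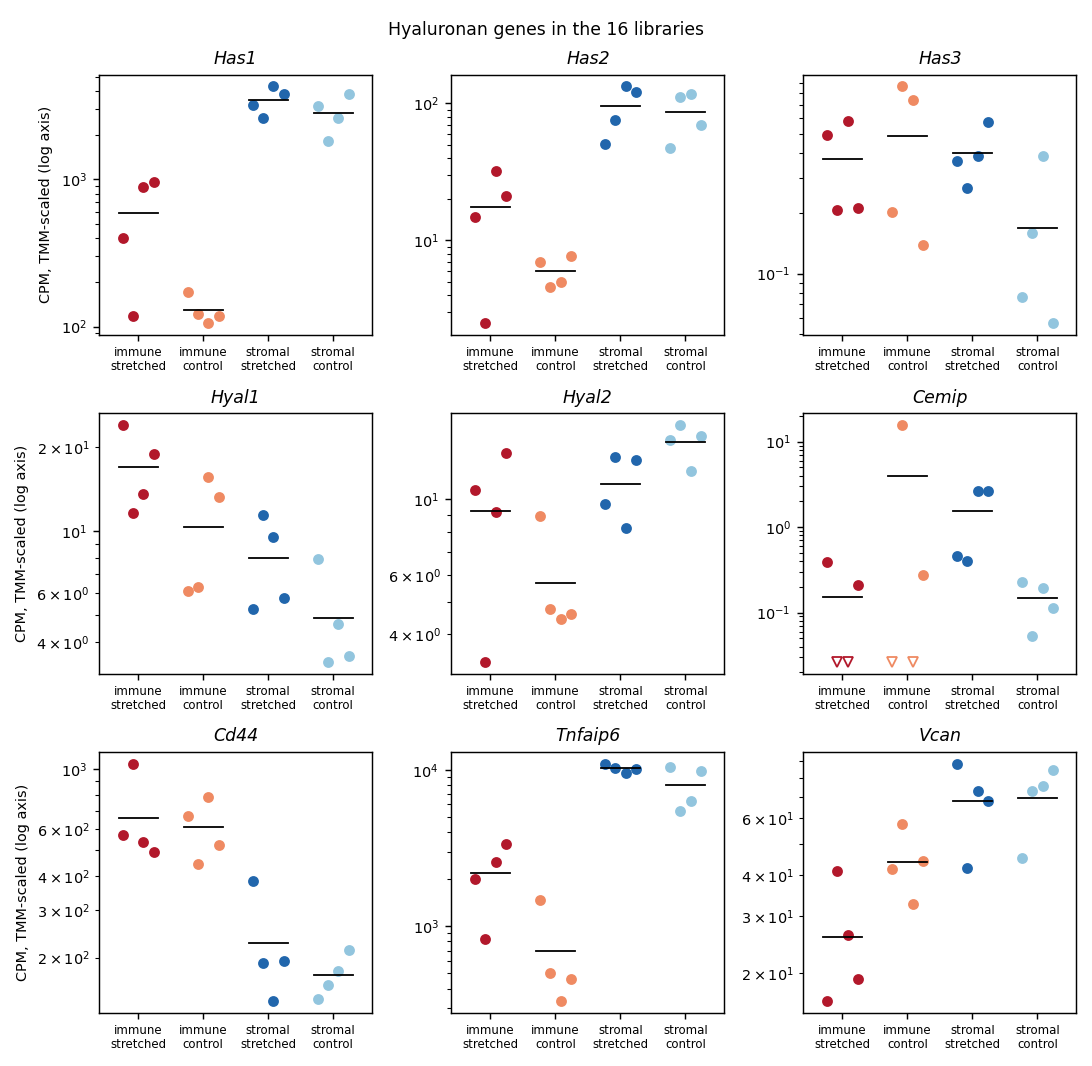
Level of each of the 9 genes in the 16 libraries (TMM-scaled CPM, log axis, 1 panel a gene), with a point a library, a line at the group mean and open triangles at the foot of the *Cemip* panel for libraries with 0 reads. *Has1*, *Has2* and *Tnfaip6* sit higher in stromal than in immune libraries, *Cd44* sits higher in immune libraries, and stretched and control points of 1 fraction overlap in most panels.

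Most synthase reads were on *Has1*, and *Has1* and *Has2* were lower in immune than in stromal cells of both treatments. *Has1*, which makes hyaluronan less efficiently than its relatives in cell assays, lies on chromosome 17 (17843323 to 17855205, GRCm38). It gave 402, 118, 887 and 965 CPM in immune stretched 1, 2, 7 and 8, against 172, 121, 106 and 118 CPM in immune control 3, 4, 5 and 6. It gave 3229, 2633, 4294 and 3798 CPM in stromal stretched 5 to 8, against 3145, 1839, 2637 and 3782 CPM in stromal control 1 to 4. Every stromal library was above every immune library, and the fractions likewise did not overlap, in either direction, for 48.3% of all genes tested in stretched and 47.9% in control skin. Immune stretched 2 was alone among stretched immune libraries in the range of the immune controls. *Has1* was 6.51-fold lower in immune than in stromal stretched cells, a log2 fold change of -2.70 ± 0.58 (SE; edgeR's quasi-likelihood test, adjusted p = 0.00403). In the controls it was 20.1-fold lower in immune cells (-4.33 ± 0.37, adjusted p = 9.25e-06).

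*Has2*, the synthase that mouse embryos need for heart development, lies on chromosome 15 (56665627 to 56694539). It gave 14.7, 2.49, 32.3 and 21.01 CPM in immune stretched 1, 2, 7 and 8, against 6.93, 4.54, 4.93 and 7.65 CPM in immune control 3 to 6. It gave 50.9, 76.0, 133 and 122 CPM in stromal stretched 5 to 8, against 47.0, 111, 118 and 70.1 CPM in stromal control 1 to 4. The fractions did not overlap in either treatment, with *Has2* 5.93-fold lower in immune than in stromal stretched cells (-2.57 ± 0.60, edgeR adjusted p = 0.00612) and 13.1-fold lower in immune than in stromal control cells (-3.71 ± 0.35, edgeR adjusted p = 1.57e-05). Without stromal stretched 7 and 8, the pair with receptor-gene reads, the stretched value was -1.96 and missed the threshold (edgeR adjusted p = 0.0645). *Has2os* lies across *Has2* on the opposite strand with 2943 reads in all. No source used here gives the strand setting of the counting, so reads of the pair cannot be told apart.

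*Has3*, which makes shorter chains in cell assays and lies on chromosome 8 (106870242 to 106884566), had 1 to 9 reads in immune stretched, 1 to 4 in immune control, 6 to 17 in stromal stretched and 1 to 6 in stromal control libraries. These counts were too low for the filter, and no test was made. As a share of the per-kilobase level of the 3 synthases, *Has1* made up 96.2 to 97.7% in immune stretched, 93.5 to 95.8% in immune control, 96.7 to 98.3% in stromal stretched and 93.96 to 98.4% in stromal control libraries. *Has1* led in every library. Its share in each immune stretched library lay above that in every immune control library, whereas the stromal groups overlapped.

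*Tnfaip6*, on chromosome 2 (52038009 to 52056686), stood with the synthases in the stromal cells. It gave 2009, 828, 2579 and 3335 CPM in immune stretched 1, 2, 7 and 8, against 1472, 505, 334 and 459 CPM in immune control 3 to 6. It gave 10866, 10321, 9557 and 10102 CPM in stromal stretched 5 to 8, against 10348, 5417, 6345 and 9843 CPM in stromal control 1 to 4. The stromal stretched libraries lay close together, with a coefficient of variation of 5.31%, against 30.9% in stromal control, 48.3% in immune stretched and 75.7% in immune control. *Tnfaip6* was 5.13-fold lower in immune than in stromal stretched cells (-2.36 ± 0.44, edgeR adjusted p = 0.00191) and 10.7-fold lower in immune than in stromal control cells (-3.42 ± 0.54, edgeR adjusted p = 0.000427).

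*Cd44*, the main hyaluronan receptor of leukocytes, was higher in the immune cells. The gene lies on chromosome 2 (102811141 to 102901665). It gave 568, 1042, 537 and 493 CPM in immune stretched 1, 2, 7 and 8, against 669, 445, 790 and 524 CPM in immune control 3 to 6. It gave 384, 192, 139 and 194 CPM in stromal stretched 5 to 8, against 141, 158, 178 and 213 CPM in stromal control 1 to 4. All immune libraries were above all stromal ones, although immune stretched 2 and stromal stretched 5 stood far above the rest of their groups. *Cd44* was 2.66-fold higher in immune than in stromal stretched cells (1.41 ± 0.37, edgeR adjusted p = 0.0102) and 3.83-fold higher in immune than in stromal control cells (1.94 ± 0.27, edgeR adjusted p = 0.000208). Without stromal stretched 7 and 8 the stretched value was 1.11 and missed the threshold (edgeR adjusted p = 0.112). Immune stretched 2 also had the largest neutrophil marker sum, 33106 CPM of its total, against 144 to 777 in the other immune stretched and 473 to 8921 in the immune control libraries. The part of those cells in the *Cd44* level was not tested.

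*Vcan*, the large proteoglycan that hyaluronan holds in the matrix, lies on chromosome 13 (89655312 to 89742509). It gave 16.4, 41.3, 26.2 and 19.2 CPM in immune stretched 1, 2, 7 and 8, against 41.8, 57.5, 32.6 and 44.4 CPM in immune control 3 to 6. It gave 88.2, 42.1, 72.8 and 68.0 CPM in stromal stretched 5 to 8, against 45.2, 72.7, 75.6 and 84.3 CPM in stromal control 1 to 4. Stretched immune libraries were below all stretched stromal ones, whereas the controls of the fractions overlapped. *Vcan* was 2.91-fold lower in immune than in stromal stretched cells (-1.54 ± 0.33, edgeR adjusted p = 0.00409), and the control value of -0.50 ± 0.28 missed the threshold (edgeR adjusted p = 0.161). Without immune control 4, which had the receptor-gene reads, the control value was -0.81 and passed (edgeR adjusted p = 0.0262).

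Of the hyaluronidase genes, *Hyal1* was called higher in immune than in stromal cells of both treatments, and *Hyal2* was called lower in immune control cells. *Hyal1*, which works in lysosomes, lies on chromosome 9 (107576927 to 107581710). It gave 23.9, 11.6, 13.5 and 18.9 CPM in immune stretched 1, 2, 7 and 8, against 6.11, 6.27, 15.5 and 13.2 CPM in immune control 3 to 6. It gave 5.23, 11.4, 9.53 and 5.76 CPM in stromal stretched 5 to 8, against 7.90, 3.39, 4.63 and 3.56 CPM in stromal control 1 to 4. In stretched skin all immune libraries were above the stromal ones, by 1.94-fold (0.95 ± 0.34, edgeR adjusted p = 0.0389), while in the controls the fractions overlapped at 2.29-fold (1.19 ± 0.45, edgeR adjusted p = 0.0467). Both calls sat near the threshold and were lost without any 1 of several libraries: stromal stretched 5 or 8 and immune stretched 1 or 8 in the stretched comparison, and stromal control 2, 3 or 4 and immune control 5 or 6 in the control comparison. *Hyal1* shares its strand and part of its span with *Naa80* and *Hyal3*, so its reads are uncertain.

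*Hyal2*, the membrane-anchored enzyme that makes the first cuts in long chains, neighbours *Hyal1* on chromosome 9 (107567945 to 107572779). It gave 10.7, 3.32, 9.20 and 13.7 CPM in immune stretched 1, 2, 7 and 8, against 8.97, 4.76, 4.44 and 4.59 CPM in immune control 3 to 6. It gave 9.73, 13.4, 8.25 and 13.1 CPM in stromal stretched 5 to 8, against 14.97, 16.5, 12.2 and 15.4 CPM in stromal control 1 to 4. The controls did not overlap, with *Hyal2* 2.38-fold lower in immune than in stromal cells (-1.25 ± 0.33, edgeR adjusted p = 0.00967). The stretched libraries did overlap, and the value there of -0.38 ± 0.37 missed the threshold (edgeR adjusted p = 0.416). Thinned to the depth of the shallowest library, the control value was -0.97 and missed it too (edgeR adjusted p = 0.0524). The antisense gene *Gm9917* overlaps *Hyal2* with 1017 reads in all, which unstranded counting cannot tell apart from it.

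*Cemip*, whose product human skin fibroblasts need to break down hyaluronan, lies on chromosome 7 (83932857 to 84086502). It had 4, 0, 0 and 4 reads in immune stretched 1, 2, 7 and 8, against 0, 72, 0 and 2 reads in immune control 3 to 6. It had 10, 9, 69 and 78 reads in stromal stretched 5 to 8, against 3, 1, 3 and 2 reads in stromal control 1 to 4. The 3 libraries with 69 or more reads, at 15.6 CPM in immune control 4, 2.67 in stromal stretched 7 and 2.64 in stromal stretched 8, were the same 3 that held many receptor-gene reads. Every stromal stretched library was above every stromal control library, also without that pair, at 0.459 and 0.401 CPM in stromal stretched 5 and 6, against 0.0530 to 0.228 CPM in stromal control libraries. *Cemip* did not pass the filter and was not tested, and the part of the receptor-gene libraries in its level was not tested. In the 4 immune libraries with 0 reads, a count of 0 allows up to 3 reads, or 0.623 CPM in immune stretched 2, 0.194 in immune stretched 7, 0.611 in immune control 3 and 0.740 in immune control 5, on the same TMM scale, for counting error only.

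**Figure D2:**
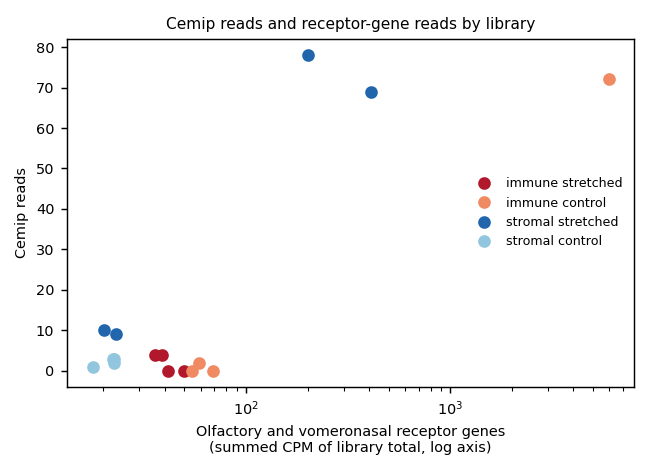
Reads on *Cemip* (vertical axis, raw count) against the summed level of 1738 olfactory and vomeronasal receptor genes (horizontal axis, CPM of the library total, log scale), 1 point a library. The 3 points with 69 or more reads are immune control 4 and stromal stretched 7 and 8, the libraries with at least 200.3 CPM of receptor-gene reads.

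Counted between the fractions, 2 of the 7 tested genes (*Cd44* and *Hyal1*) were higher and 4 (*Has1*, *Has2*, *Tnfaip6* and *Vcan*) lower in immune than in stromal stretched cells, and in the controls the same 2 were higher and 4 (*Has1*, *Has2*, *Tnfaip6* and *Hyal2*) lower. Of all genes tested, 23.9% were called higher and 25.1% lower in the stretched comparison (49% in all), and 26.6% higher and 22.8% lower in the control comparison (49.4% in all). The median log2 fold change of the 7 genes was -1.54 in the stretched comparison, against -0.06 over all genes tested, and -1.25 in the control comparison, against 0.08. The 8 fibroblast markers were also lower in immune cells, 8 of 8 in each comparison, with medians of -2.79 in the stretched and -3.56 in the control comparison. The part of fibroblast content in the levels of *Has1*, *Has2* and *Tnfaip6* was not tested. Without the receptor-gene libraries *Has1* stood at -2.44, *Tnfaip6* at -2.40 and *Vcan* at -1.43 in the stretched comparison (edgeR adjusted p = 0.0337, 0.0143 and 0.0452).

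**Figure D3:**
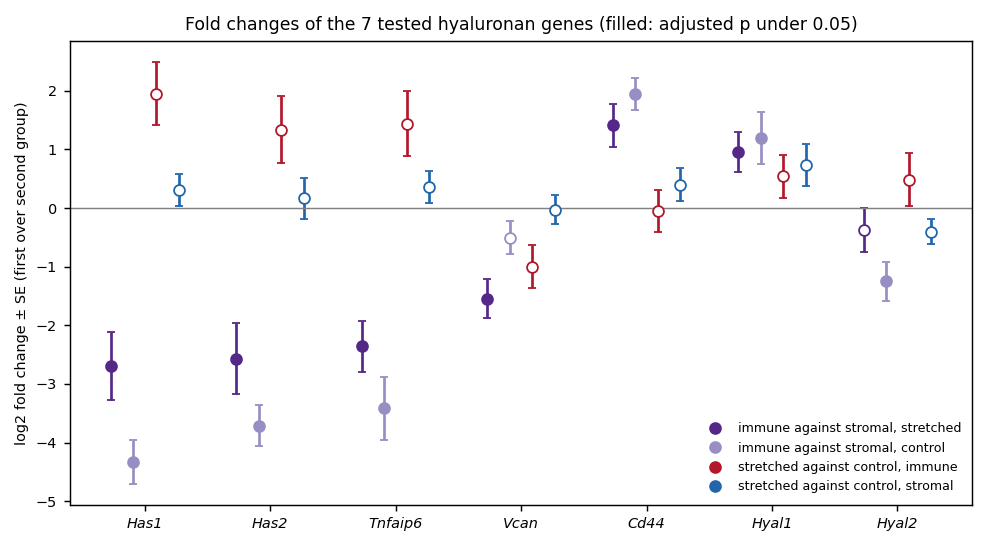
Log2 fold changes with their standard errors for the 7 tested genes, in immune against stromal cells (purple, stretched dark and control light) and in stretched against control skin (immune red, stromal blue), from edgeR fits. Filled points passed an adjusted p of 0.05: between the fractions 6 of 7 are filled in each treatment, and between stretched and control skin 0 of 7.

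Between stretched and control skin, 0 of the 7 genes were called in either fraction. In the immune cells 0 of 14183 genes tested were called at all (0%), and 17.4% had an unadjusted p under 0.05, as did 4 of the 7. *Has1* had the largest value of the 7 there, a log2 fold change of 1.95 ± 0.54 (edgeR unadjusted p = 0.00452, adjusted p = 0.165), with 593 ± 403 CPM in immune stretched and 129 ± 29.5 CPM in immune control cells (SD, n = 4 each). *Tnfaip6* was at 1.44 ± 0.55 (edgeR adjusted p = 0.233), *Has2* at 1.34 ± 0.57 (0.271), *Hyal1* at 0.54 ± 0.37 (0.456), *Hyal2* at 0.49 ± 0.45 (0.591), *Cd44* at -0.048 ± 0.36 (0.959) and *Vcan* at -0.997 ± 0.37 (0.2295), each with the edgeR adjusted p in parentheses. The immune libraries of stretched and control skin overlapped for all 7, while 11.5% of all genes tested did not overlap. The call on *Has1* turned on the tool and on immune stretched 2: DESeq2 gave 1.91 (adjusted p = 0.0141), limma-voom 2.22 (adjusted p = 0.0232), edgeR without that library 2.29 (adjusted p = 0.0469) and edgeR with all 16 libraries in 1 fit 2.17 (adjusted p = 0.0251). DESeq2 called 781 genes in the immune cells and limma-voom 888, and the limma-voom calls had *Tnfaip6* (2.05, adjusted p = 0.0259) and *Vcan* (-1.14, adjusted p = 0.0337) among them.

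Fibroblast transcripts also varied across the immune libraries. The fibroblast marker sum was 7700, 1367, 8979 and 9688 CPM in immune stretched 1, 2, 7 and 8, against 7220, 5108, 1436 and 2834 CPM in immune control 3 to 6, and 0 of the 8 markers were called between them, with a median log2 fold change of 0.80. Immune stretched 2, which had the least, was also the lowest of its group for *Has1*, *Has2*, *Tnfaip6*, *Hyal1* and *Hyal2*. Immune control 5 had the least of the immune controls and was the lowest of them for *Has1*, *Tnfaip6* and *Hyal2*. It was not the lowest for *Has2* (4.93 CPM, against 4.54 in immune control 4) and was the highest for *Hyal1*, at 15.5 CPM. Per 1000 reads on these markers, *Has1* had 49.6 to 93.4 reads in immune stretched, 24.2 to 66.5 in immune control, 41.9 to 91.6 in stromal stretched and 32.4 to 83.0 in stromal control libraries. On that scale *Has1* overlapped between all 4 groups. *Tnfaip6* had 248 to 416 reads per 1000 in immune stretched, 173 to 210 in immune control, 164 to 244 in stromal stretched and 95.4 to 234 in stromal control libraries, so on that scale each immune stretched library was above those of the other 3 groups, whereas in CPM it was below every stromal library. *Vcan* had 1.85 to 20.7 reads per 1000 in immune stretched, 5.87 to 20.5 in immune control, 0.670 to 1.64 in stromal stretched and 1.02 to 1.85 in stromal control libraries. Against fibroblast reads *Vcan* was therefore higher in the immune than in the stromal libraries of either treatment, at the closest 1.854 in immune stretched 8 against 1.849 in stromal control 4. In CPM, by contrast, *Vcan* in immune stretched libraries was below all stromal stretched ones, and the controls overlapped. The marker sum under these ratios was itself lower in every immune library than in any stromal one. The part of fibroblast content in the immune values was not tested beyond these ratios.

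**Figure D4:**
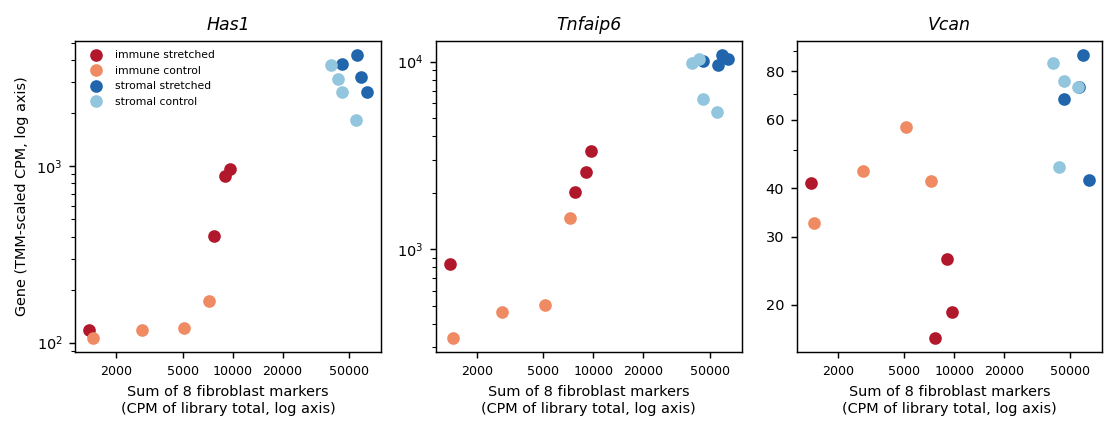
Levels of *Has1*, *Tnfaip6* and *Vcan* (vertical axes, TMM-scaled CPM, log scale) against the summed level of 8 fibroblast markers (horizontal axes, CPM of the library total, log scale), 1 point a library. Immune stretched 2, at a marker sum of 1367 CPM, sits among the immune controls for *Has1*, while the other immune stretched libraries sit at 7700 or more and carry the most *Has1* and *Tnfaip6* of the immune libraries and the least *Vcan*.

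In the stromal cells 800 of 16074 genes (4.98%) were called between stretched and control skin, and 0 of the 7. Of these 7, 0 had an unadjusted p under 0.05, against 26.8% of all genes tested. *Hyal1* was at 0.73 ± 0.36 (edgeR adjusted p = 0.222), with 7.98 ± 2.98 CPM in stretched and 4.87 ± 2.09 CPM in control cells (SD, n = 4 each). *Hyal2* was at -0.40 ± 0.21 (0.252), *Cd44* at 0.40 ± 0.29 (0.401), *Tnfaip6* at 0.36 ± 0.27 (0.422), *Has1* at 0.31 ± 0.28 (0.512), *Has2* at 0.16 ± 0.35 (0.802) and *Vcan* at -0.024 ± 0.25 (0.963), with the edgeR adjusted p in parentheses. Stretched and control libraries overlapped for each of the 7, while 18% of all genes tested did not overlap. Without stromal stretched 7 and 8, *Has1* was at 0.026, *Has2* at -0.46 and *Cd44* at 0.72, and 0 of the 7 were called. Their median with all libraries was 0.31, against 0.01 over all genes tested, and in the immune cells 0.54, against -0.02.

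The effect of stretch was not shown to differ between the fractions for any of the 7. The immune effect minus the stromal one was 1.88 ± 0.66 for *Has1* (edgeR unadjusted p = 0.0114, adjusted p = 0.127), 1.39 ± 0.72 for *Has2* (0.252), 1.29 ± 0.67 for *Tnfaip6* (0.260) and 1.10 ± 0.50 for *Hyal2* (0.2005), with the edgeR adjusted p in parentheses. *Vcan* was at -0.78 ± 0.44 (0.295), *Cd44* at -0.29 ± 0.46 (0.746) and *Hyal1* at -0.0056 ± 0.50 (0.999) in the same test. Of 18295 genes, 0 (0%) were called and 23.1% had an unadjusted p under 0.05, as did 2 of the 7, while DESeq2 called 1625 and limma-voom 1453. Limma-voom passed *Has1* (1.89, adjusted p = 0.0387) and *Tnfaip6* (1.64, adjusted p = 0.0454).

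Other genes of the hyaluronan pathway were read from 8 lists with 66 genes in the table. In the UDP-sugar supply, 1 of 10 tested genes was higher and 7 were lower in immune than in stromal cells, in stretched and in control skin alike. Of all genes tested, 23.9% were called higher and 25.1% lower in stretched skin, and 26.6% higher and 22.8% lower in the controls. *Gfpt2*, which starts the hexosamine branch toward UDP-N-acetylglucosamine, averaged 172 ± 115 CPM in immune stretched, 31.2 ± 5.06 in immune control, 2019 ± 754 in stromal stretched and 976 ± 240 in stromal control cells (SD, n = 4 each). It was lower in immune cells, with a log2 fold change of -3.70 ± 0.69 in stretched and -4.84 ± 0.31 in control skin (edgeR adjusted p = 0.00195 and 2.91e-06), while its paralog *Gfpt1* was higher (1.05 ± 0.18 in stretched skin, edgeR adjusted p = 0.00124). *Ugdh*, which makes UDP-glucuronic acid, was at -3.37 ± 0.36 and *Uap1*, which makes UDP-N-acetylglucosamine, at -2.60 ± 0.30 in the controls (edgeR adjusted p = 3.52e-05 and 6.35e-05). Between stretched and control skin 0 of 11 supply genes in stromal and 0 of 10 in immune cells were called. The shares over all genes tested were 4.98% in stromal and 0% in immune cells. *Gfpt2* came closest in the stromal cells, at 1.07 ± 0.29 (edgeR adjusted p = 0.0562), with all stretched above all control libraries.

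Among 8 other hyaluronan receptors, 3 were higher and 2 lower in immune than in stromal stretched cells, of 8 tested, and 4 were higher and 2 lower of 7 tested in the controls. Over all genes tested, 23.9% were called higher and 25.1% lower in stretched skin (49% in all). In the controls 26.6% were called higher and 22.8% lower (49.4% in all). The endothelial and macrophage receptors *Stab1* and *Lyve1* were at 3.16 ± 0.32 and 2.99 ± 0.55 in stretched skin and at 4.26 ± 0.35 and 4.33 ± 0.52 in the controls, and the innate sensor *Tlr2* at 3.51 ± 0.41 and 3.36 ± 0.41 (edgeR adjusted p of at most 0.00179). *Layn*, which encodes layilin, was lower in immune cells, at -2.62 ± 0.45 in stretched and -2.85 ± 0.45 in control skin. Endothelial markers, 7 blood and 6 lymphatic, were themselves mostly higher in the immune fraction (6 and 5 in stretched, 7 and 5 in control skin), and their part in *Stab1* and *Lyve1* was not tested. In stretched stromal cells 1 receptor of 8 rose, *Icam1*, an adhesion molecule listed here as a hyaluronan binder, at 1.04 ± 0.23 (edgeR adjusted p = 0.0431). Of all genes tested there, 2.05% were called higher.

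Of the partners of *Tnfaip6* in heavy chain transfer and binding, 1 was higher and 3 were lower in immune cells, of 6 tested in stretched and of 5 tested in control skin. *Ptx3*, the pentraxin that crosslinks heavy chains, was at -3.39 ± 0.50 in stretched and -3.70 ± 0.70 in control skin (edgeR adjusted p = 0.000525 and 0.00138), and *Itih5*, a heavy chain gene of skin, at -3.04 ± 0.63 and -4.36 ± 0.39 (0.00327 and 1.17e-05). The gene that was higher, *Ambp*, encodes the light chain bikunin and averaged 4.61 ± 5.40 CPM in immune stretched and 3.18 ± 1.43 CPM in immune control cells, against 0.113 ± 0.164 in stromal stretched cells and 0 reads in stromal control libraries. In versican processing 1 gene was higher and 5 were lower in immune cells, of 8 tested in stretched and 7 in control skin. Beside these lists, 23.9% of all genes tested were called higher and 25.1% lower in stretched skin. In the controls 26.6% were called higher and 22.8% lower. The protease gene *Adamts15* had the lowest value of the list in stretched skin, at -3.58 ± 0.55 (edgeR adjusted p = 0.000662), and the matrix gene *Fbln1* in the controls, at -4.29 ± 0.47 (edgeR adjusted p = 3.81e-05). The elastic fibre gene *Fbn1* was at -2.84 ± 0.51 in stretched and -3.42 ± 0.36 in control skin, and the protease gene *Adamts1* at -2.96 ± 0.54 and -1.67 ± 0.38. The versican-cutting protease *Adamts4* rose in stromal stretched cells, at 181 ± 33.1 CPM against 108 ± 7.65 CPM in stromal control cells (0.76 ± 0.18, edgeR adjusted p = 0.0466). *Adamts1* was at 1.08 ± 0.28 there and just missed the threshold (edgeR adjusted p = 0.0502).

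**Figure D5:**
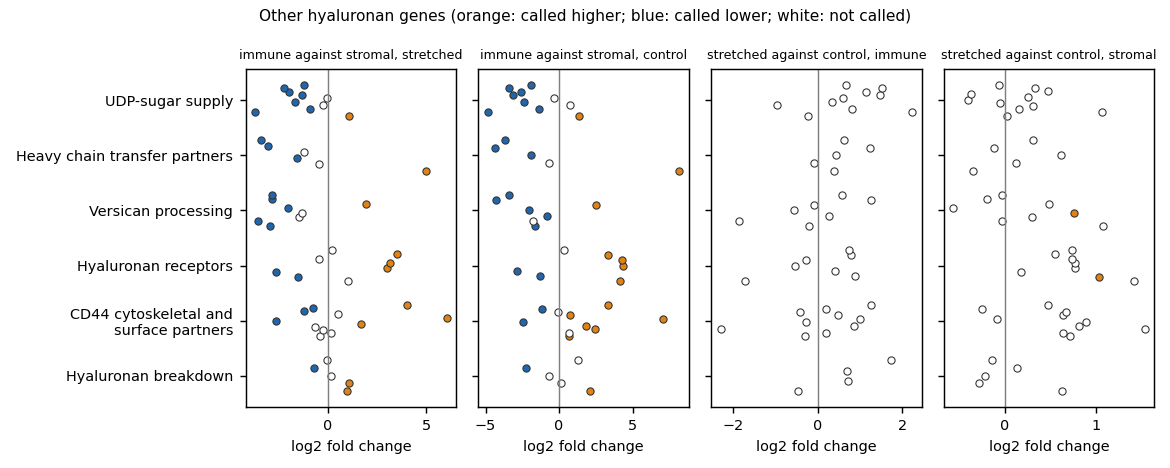
Log2 fold changes of other hyaluronan genes in 6 lists (down the page) and 4 comparisons (panels, first group over second), 1 point a tested gene, orange for those called higher, blue for those called lower and white for the rest. Between the fractions most points of the UDP-sugar and versican lists are blue, and between stretched and control skin the coloured points are *Icam1* and *Adamts4*, both in stromal cells.

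Among 9 other breakdown genes, *Cemip2*, a relative of *Cemip*, was higher in immune cells at 0.99 ± 0.30 in stretched and 2.13 ± 0.23 in control skin (edgeR adjusted p = 0.022 and 3.66e-05). Of 11 cytoskeletal and surface partners of CD44, 3 were higher and 3 lower of 11 tested in immune stretched cells, and 6 were higher and 2 lower of 10 in immune control cells. Calls in either direction covered 49% of all genes tested in stretched and 49.4% in control skin. *Ezr*, a linker of CD44 to actin, was at 1.68 ± 0.36 and 1.80 ± 0.36, and the secreted protease *Mmp9* at 6.05 ± 1.37 and 7.05 ± 1.12. *Mmp14*, a membrane protease that cuts CD44, was at -2.65 ± 0.45 and -2.47 ± 0.40 (edgeR adjusted p of at most 0.00524 for *Ezr*, *Mmp9* and *Mmp14*). The related linker gene *Rdx* was lower in immune cells, at -0.78 ± 0.21 in stretched and -1.19 ± 0.25 in control skin (edgeR adjusted p = 0.0124 and 0.00233). *Msn*, another, was called higher in the controls (0.73 ± 0.28, edgeR adjusted p = 0.0481) but not in stretched skin (0.50 ± 0.23, edgeR adjusted p = 0.0872). Link proteins and lecticans other than versican were barely read: 0 of 7 passed the filter in the control comparison of the fractions and 1 in the stretched one, *Hapln3* (-2.61 ± 0.58, edgeR adjusted p = 0.00484). *Has2os* was lower in immune cells at -1.92 ± 0.47 in stretched and -4.22 ± 0.64 in control skin (edgeR adjusted p = 0.0073 and 0.000328).

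Over all 66 genes, 11 of 50 tested were higher and 23 lower in immune than in stromal stretched cells, and 14 of 45 were higher and 21 lower in the controls. The shares over all genes tested were 23.9% higher and 25.1% lower in stretched skin and 26.6% higher and 22.8% lower in the controls. Stretch gave 2 higher and 0 lower of 51 in stromal cells and 0 of 44 in immune cells, and 0 of 52 differed in effect between the fractions. Of all genes tested in the stromal cells, 2.05% were called higher and 2.93% lower. The calls on *Icam1* and *Adamts4* rested on most libraries of the comparison: with stromal stretched 7 or 8, or stromal control 1, 2 or 3, left out in turn, edgeR called 0 genes in all, and with stromal stretched 6 left out it called 2.

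The genes whose log2 CPM over the 8 libraries of a fraction lay closest to a member's, by Pearson correlation among genes of at least 10 CPM, are given as a description. The points share the fraction, and depth follows treatment among them. In stromal cells the nearest of 8374 genes to *Has1* were *Spsb1* (0.953), the immediate early gene *Egr1* (0.952) and *Mylip* (0.944), and those to *Tnfaip6* were *Itgbl1* (0.971), the NF-kB cofactor *Bcl3* (0.954) and *Acer3* (0.953). *Has2* lay nearest to the collagen gene *Col5a3* (0.921), *Zfp423* (0.908) and *Dmpk* (0.905). In immune cells the nearest of 8452 genes to *Tnfaip6* were *Mfap4* (0.988), *Serping1* (0.987) and *Fgf7* (0.987), and those to *Has1* were *Cpq* (0.988), *Tmem214* (0.984) and *Cpxm1* (0.982). *Cd44* there lay nearest to *Gpalpp1* (0.983), the granule proteoglycan gene *Srgn* (0.982) and the C-type lectin gene *Clec4e* (0.981), whose level spanned 226 to 2916 CPM.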

How the data were processed

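Per the labels' protocols, total RNA of the sorted cells was turned into cDNA with a SMART-Seq mRNA LP kit, and Nextera XT gave the libraries. FastQC 0.11.9, STAR and the build mm10 are named in the submitters' processing notes. No source used here gives the counting tool, its strand setting or its annotation. The authors deposited raw counts per Ensembl gene for 16 libraries, with no normalization. Of 55487 gene IDs, 55394 matched GENCODE M21 (GRCm38), which gave symbols, coordinates and exon length; for 107 symbols with more than 1 ID, the most-read ID was used. Libraries were matched to columns by the description in their labels, 0 columns were left over, and libraries within a group differed far beyond counting noise (25.1 to 247 chi-square per degree of freedom).

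The 5 comparisons were made with edgeR 4.0.16 (R 4.3.3), each from its own groups alone. Low counts were dropped by filterByExpr (at least 10, and 15 in total), followed by TMM factors, the quasi-likelihood F test and Benjamini-Hochberg adjustment over all genes tested, at an adjusted p under 0.05. The difference of stretch effects used all 16 libraries. Standard errors come from the F statistic. CPM of single genes are TMM-scaled over all 16 libraries, and sums over lists are CPM of the library total. Total counts of 2645421 to 26944965 per library set the precision, and limits for a count of 0 cover counting error only, since the labels name no molecular identifiers. Alternatives were RLE factors, DESeq2 1.42.0, limma-voom (limma 3.58.1) with quality weights, no filter, a filter of at least 50 reads in 4 libraries, thinning to the shallowest library, 1 fit of all 16 libraries, the title number as a replicate block, and leaving out libraries. The fits were also run on simulated counts, in which all genes but a chosen set had the same mean in every group. The comparisons of the fractions are unlike that setting, and no result given here rests on the simulation. The 9 genes, the lists of other hyaluronan genes and cell type markers, and the libraries to leave out were chosen with earlier results of these data known. Named were the 9 genes, *Ptprc*, up to 4 genes a list and comparison with the smallest p, and the 3 most correlated genes a member (log2 CPM with a pseudocount of 1). *Rdx* and *Msn* were named beside *Ezr* as related genes of its list. Promoter windows are RefSeq's (GRCm38.p6).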

Additional observations from a re-analysis of the deposited data

Results flagged for a closer look

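Values were compared within each of the 36 sets of 4 libraries (9 genes in 4 groups), and 4 values, from 3 libraries, stood farther from the rest of their group than Dixon's 95% critical value allows for the gap over the range. Chance gives that in about 1 of 20 such sets. *Cd44* stood at 1042 CPM in immune stretched 2, above the other 3 libraries at 493 to 568 CPM. *Tnfaip6* stood at 1472 CPM in immune control 3, above 334 to 505 CPM in the other immune controls, and *Hyal2* stood at 8.97 CPM in the same library, above 4.44 to 4.76 CPM. *Cemip* stood at 15.6 CPM in immune control 4, above 0 to 0.278 CPM in the other immune controls. Immune control 3 had the highest fibroblast marker sum of the immune controls, 7220 CPM of its total, immune stretched 2 the highest neutrophil marker sum, 33106 CPM, and immune control 4 the highest receptor-gene level, 5942 CPM; their part in these values was not tested.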

How the results depend on the processing

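Between the fractions *Has1* kept its calls in every alternative run, *Tnfaip6* in all but the replicate block. With that block *Tnfaip6* was at -3.01 in the controls (edgeR adjusted p = 0.0743), where *Cd44* was at 1.67 (0.0931), *Hyal2* at -0.87 and *Hyal1* at 0.79, none of them called. The fractions share only title numbers 3 and 4 in the controls, and 7 and 8 in stretched skin. With the block, the difference between the fractions therefore came from those libraries alone, which include all libraries with many receptor-gene reads. *Hyal1* also lost its call thinned (0.87) and without the receptor-gene libraries (0.91) in stretched skin and unfiltered (1.004) in the controls, where *Vcan* passed by limma-voom (-0.62). Same-numbered libraries correlated at -0.0843 to 0.179 in their deviations, 3 of 8 pairs over 0.1, and 1 library correlated best with its own number. Numbers 1 and 2 join stromal control with immune stretched libraries, and 5 and 6 join stromal stretched with immune control libraries. Those numbers therefore cannot mark a single skin sample sorted into both fractions, although the block treats them as units. Such correlations between different sorted fractions cannot decide whether the title numbers pair the libraries in another way, such as by animal, and the labels do not say. Stretch values that changed sign were not called under any setting. In stromal cells *Has1* was at -0.52 with the block, *Has2* at -0.85 with the block, -0.46 without the receptor-gene libraries and -0.049 to 0.385 with 1 library left out, and *Vcan* at 0.27 with the block, 0.037 thinned and -0.176 to 0.145 with 1 library left out. In immune cells *Cd44* was at 0.61 with the block, 0.074 unfiltered, 0.10 in 1 fit of all libraries and -0.408 to 0.0695 with 1 library left out. In the difference of effects *Hyal1* was at 0.44 with the block, 0.0087 by limma-voom and -0.535 to 0.246 with 1 library left out, and *Cd44* at 0.11 with the block and -0.786 to 0.11 with 1 library left out. Genes called for stretch in stromal cells, 800, became 2312 by DESeq2, 3599 by limma-voom, 2115 unfiltered (1232 higher, 883 lower), 1378 under the stricter filter and 0 without the receptor-gene libraries, in 1 fit of all libraries or with the block, and 0 to 1589 with 1 library left out. In immune cells 0 became 781 by DESeq2, 888 by limma-voom, 667 in 1 fit of all libraries and 0 to 45 with 1 library left out. For the difference 0 became 1625 by DESeq2, 1453 by limma-voom, 3924 unfiltered, 120 under the stricter filter, 2 with the block and 0 to 1495 with 1 library left out (114 without immune stretched 2, 29 without immune control 4, 1495 without immune control 6). RLE factors moved the median of all genes in the difference to -0.19, against 0.03 with TMM. Between the fractions 8380 calls in stretched skin became 5402 without the receptor-gene libraries (7002 to 8222 with 1 library left out), and 7484 in the controls became 3642 with the block (6366 to 8566 with 1 library left out). The causes were not tested. Depth limits *Has3* and *Cemip*, and immune libraries are shallower in control than in stretched skin.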
